A study of Mus musculus with 153 samples.

Results

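The clustered protocadherins were followed in mouse dorsal hippocampus as every gene symbol of the alpha, beta and gamma clusters in 6 tables of read counts: symbols that begin with Pcdha and a number or c, and those made of Pcdhb or Pcdhga, Pcdhgb or Pcdhgc and a number. This rule found 60 names among 25103 genes, 16 in the alpha, 22 in the beta and 22 in the gamma cluster. Each table listed 59 of them. The table of the Camk2a line at 15 min had been made with another gene set and listed Pcdha4-g, whereas the other 5 tables listed Pcdha7-g. Pcdha4-g had no count in the first table, and Pcdha4, Pcdha6 and Pcdha7 had none in the other 5. Pcdha6 and Pcdha7 were counted in the first table alone, and they were left out of comparisons across tables. The clusters lie in a row on the + strand of chromosome 18, by GENCODE models of the build GRCm38: the alpha cluster at chr18:36930184-37187661, the beta cluster at chr18:37264938-37524479 and the gamma cluster at chr18:37661793-37841873.

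Clustered protocadherins are cadherin-like cell surface proteins with which a neuron recognises its own branches. Each alpha and gamma gene has a large variable first exon with its own promoter, spliced to constant exons that all genes of its cluster share, and each beta gene is a single exon with no constant part. Single neurons use a small random set of the alpha, beta, gamma A and gamma B genes, chosen by promoter methylation, CTCF and cohesin. The C-type genes at the end of the alpha (Pcdhac1, Pcdhac2) and gamma clusters (Pcdhgc3, Pcdhgc4, Pcdhgc5) follow other rules, and several are used by cell type. The median alpha gene had 2494 exon bases of its own and 2860 shared with other genes, the median gamma gene 2629.5 and 2119, and the median beta gene 3714 and 0. Whether reads in shared exons were counted was not given in the sources used here. Values of alpha and gamma genes are uncertain to that extent.

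The study used TRAP, in which Cre recombinase switches on a tagged ribosome in one class of neuron, so that ribosome-bound RNA of that class can be pulled from a tissue lysate. All mice carried the TRAPfl allele with Camk2a.Cre (excitatory neurons), Pvalb.Cre (parvalbumin interneurons) or Sst.Cre (somatostatin interneurons), each Cre driven by the gene it is named for. They had received a shock in an unfamiliar context (shock), had seen that context without a shock (box) or had stayed in the home cage, in sets labelled 15 min and 60 min. Purified RNA and total lysate were sequenced as polyA RNA, and each of the 36 groups held 3 to 6 libraries, described as biological replicates. Age, sex and strain are not given in the labels. Samples are named by line, set, fraction, condition and number. A purified library and a lysate with the same condition and number are called 1 animal here, as a name and not as a pairing.

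The tables hold 151 libraries with 9043042 to 397228206 counts each, of which the clusters took 1056 to 87977. Purified libraries had a count for 32 to 55 members and lysates for 51 to 56. Sst libraries stood apart in 2 ways that bear on all results for this line. In the 60 min set, 3 animals (box 1, home cage 4 and home cage 5) had 290656072 to 397228206 counts in purified RNA and 264109341 to 292132306 in lysates, where the other 10 had at most 94397069, and their levels differed from those of the other 10. Of the purified Sst libraries, 12 had a score of interneuron and somatostatin markers less than 2 log2 units above the lysates of their table, among them all 4 shock libraries of the 60 min set (-0.83 to -0.50), so these did not carry the enrichment that their label implies. Purified libraries of the other lines scored 2.18 to 5.25 on markers of their own class of neuron. Many results for Sst are given without these libraries as well.

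One alpha gene, Pcdhac2, made up much of the alpha cluster in every home cage group, with 41.1% to 74.8% of the alpha counts. Pcdha12 came second except in purified Pvalb RNA of the 60 min set, where Pcdhac1 did, and both ranks held per kilobase of own exon. Over all conditions Pcdhac2 stood at 2.03, 3.07, 6.77, 9.29, 7.68 and 8.60 CPM (CPM is a gene's count scaled to a common library total) per kilobase of own exon in purified RNA of the 6 tables and at 6.31, 7.51, 9.05, 8.94, 11.9 and 6.58 in lysates, in the order Camk2a, Pvalb and Sst with 15 min before 60 min. The beta cluster was more even, and its highest gene took 11.4% to 20.3% of the beta counts. Per kilobase Pcdhb9 was the highest beta gene in all 6 home cage lysates, and Pcdhb7, Pcdhb12 or Pcdhb17 in purified RNA. Pcdhb1 was lowest of the beta genes in all 12 home cage groups, and in purified RNA it had counts in 1 library alone (0.0125 CPM, Pvalb 60 min).

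The order of the gamma genes differed between the fractions. In all 6 home cage lysates Pcdhgc5 was highest with 23.0% to 31.4% of the gamma counts and Pcdhgc3 came second, by CPM and by CPM per kilobase of own exon. In purified RNA Pcdhgc5 led in the Camk2a line (32.6% at 15 min and 34.9% at 60 min) and in Sst at 60 min (27.6%). In purified Pvalb RNA of the 15 min set Pcdhga7 led with 11.4%, and in the 60 min set Pcdhgc5 led by CPM with 12.3% but Pcdhgc3 per kilobase. In purified Sst RNA at 15 min Pcdhgc5 led by CPM with 23.2% and Pcdhga7 per kilobase. Members above 1 CPM varied between home cage animals. Their median SD was 0.39 to 0.59 times the mean in purified RNA and 0.24 to 0.42 times in lysates. The most variable of them stood at 0.85 to 1.76 times in purified RNA. Members under 1 CPM, such as Pcdhgc4 in purified Camk2a RNA at 15 min, are not in these figures.

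The gamma cluster was lower in purified RNA than in lysate in 5 of the 6 tables, where the beta cluster differed less (the plot of cluster totals by library). In Sst at 60 min beta differed more than gamma, with lysate over purified ratios of 1.82 and 1.1. In the Camk2a line at 15 min the summed gamma level was 9.95, 20 and 36.1 CPM (lowest, median, highest; 21.5 ± 9.34, SD, n = 10) in purified RNA and 51.8, 75.6 and 99.1 CPM (76.3 ± 12.9, n = 10) in lysates. The 60 min set held 18.9, 40.2 and 74.4 CPM (n = 12) in purified RNA and 96.5, 137 and 156 CPM (n = 12) in lysates. The ranges of the fractions did not overlap in either set. In the Pvalb line the purified values were 15.3, 27.9 and 51.0 CPM at 15 min (n = 13) and 19.9, 27.6 and 40.7 CPM at 60 min (n = 16). The Pvalb lysates held 103, 144 and 166 CPM at 15 min (n = 12) and 96.5, 131 and 170 CPM at 60 min (n = 16). Every purified Pvalb library thus lay below every lysate of its set. In Sst at 15 min the gamma level was 20.4, 57.3 and 92.5 CPM in purified RNA and 130, 173 and 216 CPM in lysates (n = 12 each). At 60 min it was 51.1, 74.9 and 104 CPM in purified Sst RNA and 45.5, 61.6 and 165 CPM in lysates (n = 13 each), and here the ranges overlapped. The 7 purified Sst libraries of the 15 min set that were not low-scoring held 20.4, 35.6 and 62.2 CPM, and the 6 of the 60 min set 51.1, 68.4 and 82.3 CPM.

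As ratios of mean CPM, gamma in lysates was 3.55, 3.05, 4.43, 4.44, 3.39 and 1.1 times that in purified RNA, in the same order of tables. After TMM scaling, which corrects for composition, the ratios were 2.77, 2.49, 3.89, 3.69, 2.68 and 1.11. For beta the CPM ratios were 1.3, 1.31, 1.05, 1.18, 1.33 and 1.82. For alpha the groups were apart in the Camk2a line at 15 min (10.5 ± 3.86 CPM in purified RNA and 31.5 ± 4.75 CPM in lysates, n = 10 each, lysate over purified 2.99), and their ranges overlapped in the other 5 tables. In the 3 deeply sequenced Sst animals of the 60 min set gamma was 51.1 to 67.8 CPM in purified RNA and 162 to 165 CPM in lysates, as in the other tables. In the other 10 it was 66.8 to 104 CPM in purified RNA and 45.5 to 97.9 CPM in lysates. In bulk samples, fewer cells of a type and less RNA per cell cannot be told apart.

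Gene by gene, all conditions pooled with equal weight, the fall was spread over gamma A, B and C genes (the map of purified over lysate). Adjusted p here and below are from the quasi-likelihood test of edgeR, adjusted over all genes tested by Benjamini and Hochberg's method, and a gene was called under 0.05. In the order above, 12, 15, 12, 19, 14 and 4 of 22 gamma genes were lower in purified RNA and 0, 0, 0, 0, 0 and 2 were higher. Calls were common among all genes: 50.7%, 57.5%, 45.6%, 60.4%, 44.5% and 59.4% were called in either direction, of which 22.9%, 22.2%, 21.3%, 28%, 23.6% and 31.2% were higher and 27.8%, 35.3%, 24.3%, 32.4%, 21% and 28.2% lower. The median gamma log2 fold change was -1.52, -1.49, -2.12, -1.77, -1.63 and -0.34, against -0.14, -0.26, -0.15, -0.13, -0.05 and 0.11 over all genes tested. Gamma lay below 0 in 22, 22, 22, 22, 21 and 15 of the 22 genes. The counts for single subfamilies were 5, 7, 9, 12, 9 and 2 of 12 gamma A genes, 4, 5, 1, 5, 3 and 2 of 7 gamma B genes and 3, 3, 2, 2, 2 and 0 of 3 gamma C genes. Without box 1 of the Camk2a 60 min set, 13 of the 54 members were called in that table, against 20 with it. The share of all genes called without that animal is not given here.

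Of the 22 gamma genes, 21 were lower in at least 1 of the 6 tables and 16 in 3 or more. The same counts were 15 and 1 of 21 beta genes and 4 and 0 of 13 alpha genes. The share of all genes lower in as many tables was not worked out, so these counts are not set against it. The gene never called was Pcdhgb8. Pcdhga11 and Pcdhgb6 were lower in all 6, and Pcdhga5, Pcdhga8, Pcdhgb2, Pcdhgc3 and Pcdhgc5 in 5. Pcdhga11 averaged 1.33 ± 0.966, 2.93 ± 1.85, 1.27 ± 1.22, 1.5 ± 0.83, 1.89 ± 1.38 and 2.92 ± 1.28 CPM in purified RNA of the 6 tables, against 4.37 ± 1.04, 7.62 ± 1.85, 7.38 ± 2.60, 7.84 ± 1.88, 10.9 ± 2.37 and 4.94 ± 2.85 CPM in the lysates (SD, n as above). Its log2 fold changes were -1.48, -1.07, -2.39, -2.08, -2.11 and -0.67. Without the low-scoring libraries the value in Sst at 15 min was -2.76.

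Correcting each gene for GC content and length changed the number of calls, and in the Sst 60 min table also which cluster was low. With these offsets the members split 5 higher and 8 lower, 10 and 7, 4 and 10, 7 and 19, 7 and 12, and 2 and 19, against 1 and 14, 1 and 19, 2 and 14, 4 and 24, 2 and 16, and 3 and 17 without them. The gamma genes called lower were 6, 6, 9, 15, 11 and 13, and 2 were called higher in Sst at 15 min. The shares of all genes called with the offsets are not given here, so these counts are not set against them. The offsets moved the median of all genes to 0.38, 0.44, 0.20, 0.10, 0.27 and 0.06. The gamma median was then -1.02, -0.76, -1.62, -1.26, -1.09 and -0.78, still below it in each table. The beta median was 0.62, 0.41, 0.19, 0.26, 0.38 and -0.10. With the offsets 13 gamma and 6 beta genes were lower in the Sst 60 min table, against 4 and 13 without them. In the Sst 60 min table the result depended on the animals: 0 gamma genes were higher and 6 lower (median -1.48) in the 3 deeply sequenced animals alone, where 14.6% of all genes were called, and 4 were higher and 4 lower (median -0.11) without them, where 69.4% were. Without the low-scoring Sst libraries 16 gamma genes were lower at 15 min (median -1.72), and the share of all genes is not given here.

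**Figure D1:**
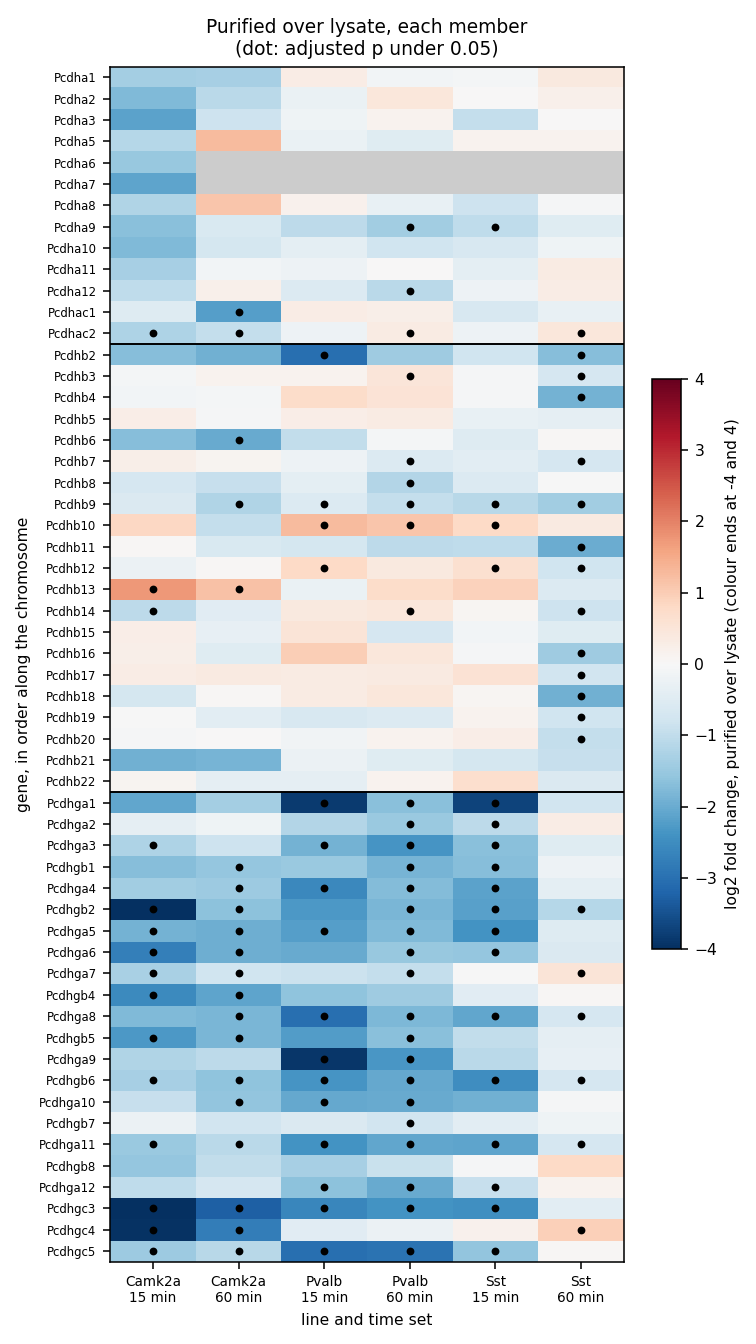
Log2 fold change of purified over lysate for each member, genes in chromosome order and columns by line and set, with the colour scale ending at -4 and 4. Dots mark an adjusted p under 0.05 and grey marks genes not tested in that table. Nearly all of the 22 gamma rows are below 0 in the columns other than Sst 60 min. In that column 9 of 12 gamma A, 5 of 7 gamma B and 1 of 3 gamma C rows are. The C-type genes differ by line.

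Pcdhgc3, whose protein promotes dendrite branching in mouse cortical neurons, changed most in the Camk2a line. It had 0, 0.206 and 0.588 CPM in purified Camk2a RNA at 15 min and 5.0, 9.57 and 13.1 CPM in lysates (log2 fold change -5.03, SE 0.61, edgeR adjusted p = 9.4e-07). Of the 10 purified libraries 3 had no count, which allows up to 0.0252 to 0.332 CPM at 3 counts per library. At 60 min it had 0.451, 1.32 and 3.4 CPM in purified RNA and 14.3, 18.8 and 23.5 CPM in lysates (-3.26, SE 0.28, edgeR adjusted p = 9.5e-10). No purified Camk2a library reached the lowest lysate in either set. In the Pvalb line it had 1.43, 3.19 and 4.28 CPM against 14.8, 20.5 and 29.9 CPM at 15 min (-2.60, SE 0.19), and 1.17, 2.95 and 6.79 CPM against 14.1, 20.6 and 33.0 CPM at 60 min (-2.38, SE 0.19), purified before lysate, with edgeR adjusted p of 2.3e-10 and 1.5e-12. In Sst at 15 min it had 0.203, 3.87 and 13.4 CPM in purified RNA and 18.2, 25.5 and 33.2 CPM in lysates (-2.45, SE 0.37, edgeR adjusted p = 1.5e-05), and -2.91 without the low-scoring libraries. In Sst at 60 min it had 1.65, 7.85 and 15.4 CPM in purified RNA and 4.29, 7.78 and 26.5 CPM in lysates (-0.41, SE 0.29, edgeR adjusted p = 0.222). There the deeply sequenced animals held 1.65 to 5.26 CPM in purified RNA and 21.7 to 26.5 CPM in lysates, and the others 4.86 to 15.4 and 4.29 to 14.7 CPM.

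Pcdhgc4, the one gamma gene that is needed for the survival of interneurons in mice, had its lowest levels in purified Camk2a RNA. It had 0, 0.0447 and 0.307 CPM in purified RNA at 15 min and 0.972, 1.71 and 3.11 CPM in lysates (log2 fold change -3.97, SE 0.82, edgeR adjusted p = 0.000468). The values at 60 min were 0, 0.170 and 1.68 CPM in purified RNA and 1.16, 3.36 and 8.10 CPM in lysates (-2.75, SE 0.84, edgeR adjusted p = 0.00718). It had no count in 3 of 10 and 4 of 12 purified Camk2a libraries, which allows up to 0.0517 to 0.332 and 0.0507 to 0.0578 CPM. Purified Camk2a values all lay below the lysate range at 15 min, whereas part of them lay within it at 60 min. In the interneuron lines, too, at least part of the purified values lay within the lysate range in both sets. They were 1.53, 3.01 and 9.99 CPM in purified Pvalb RNA at 15 min and 1.44, 5.14 and 10.7 CPM in lysates (-0.47, edgeR adjusted p = 0.202), and 0.772, 3.24 and 7.13 CPM in purified RNA at 60 min and 2.58, 4.20 and 8.02 CPM in lysates (-0.22, edgeR adjusted p = 0.377). In Sst at 15 min it had 1.14, 3.10 and 9.19 CPM in purified RNA and 3.37, 5.48 and 6.85 CPM in lysates (0.18, edgeR adjusted p = 0.640). In Sst at 60 min it was higher in purified RNA, with 0.751, 5.43 and 10.7 CPM against 1.27, 2.25 and 5.87 CPM in lysates (0.97, SE 0.28, edgeR adjusted p = 0.0047). That call was lost with GC and length offsets (0.40) and in the deeply sequenced animals alone (0.77).

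Pcdhgc5, whose protein binds a subunit of the GABA-A receptor, was lower in purified RNA in 5 tables, and most so in the Pvalb line. In purified Pvalb RNA it had 1.09, 3.10 and 14.1 CPM at 15 min and 1.84, 3.77 and 9.90 CPM at 60 min. The Pvalb lysates held 31.5, 41.5 and 49.2 CPM and 29.6, 40.2 and 47.3 CPM (log2 fold changes -3.02, SE 0.27, and -2.94, SE 0.16, edgeR adjusted p = 3.2e-09 and 1.5e-16). The highest purified Pvalb library stayed below the lowest lysate of its set. In the Camk2a line it had 2.65, 5.06 and 9.20 CPM in purified RNA and 13.1, 19.5 and 24.2 CPM in lysates at 15 min (-1.47, SE 0.21, edgeR adjusted p = 8.8e-06). At 60 min it had 6.13, 12.1 and 25.6 CPM in purified Camk2a RNA and 21.9, 41.4 and 50 CPM in lysates (-1.10, SE 0.19, edgeR adjusted p = 2.7e-05). In Sst at 15 min it had 2.57, 15.1 and 26.8 CPM in purified RNA and 37.0, 50.3 and 65.7 CPM in lysates (-1.57, SE 0.25, edgeR adjusted p = 2.0e-05), and -1.75 without the low-scoring libraries. In Sst at 60 min it had 12.8, 21.8 and 33.1 CPM in purified RNA and 9.39, 14.7 and 51.9 CPM in lysates (0.06, edgeR adjusted p = 0.868). The deeply sequenced animals of that table held 12.8 to 15.1 CPM in purified RNA and 43.2 to 51.9 CPM in lysates.

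Among the alpha genes Pcdhac2, which serotonergic neurons need to space their axons in mice, was lower in purified Camk2a RNA. It had 1.77, 6.0 and 11.4 CPM in purified RNA at 15 min and 13.8, 18.4 and 25.7 CPM in lysates (log2 fold change -1.24, SE 0.25, edgeR adjusted p = 0.000359). Its 60 min values were 1.37, 9.62 and 15.6 CPM in purified RNA and 15.8, 22.4 and 28.7 CPM in lysates (-0.95, SE 0.22, edgeR adjusted p = 0.000756), a call lost with GC and length offsets (-0.19). The fractions did not overlap in either Camk2a set. In the Pvalb line the values overlapped at 15 min (10.3, 17.5 and 34.6 CPM in purified RNA, 18.7, 27.0 and 37.1 CPM in lysates, -0.20, edgeR adjusted p = 0.381). At 60 min Pcdhac2 was higher in purified Pvalb RNA after TMM scaling, with 17.9, 26.2 and 49.5 CPM against 14.7, 26.8 and 34.8 CPM in lysates (0.33, SE 0.12, edgeR adjusted p = 0.0238). The call was lost without box 4 (0.29) or shock 4 (0.27). In Sst it had 8.77, 19.2 and 49.5 CPM in purified RNA and 29.8, 36.8 and 46.4 CPM in lysates at 15 min (-0.21, edgeR adjusted p = 0.474). In Sst at 60 min it had 16.3, 26.6 and 36.8 CPM in purified RNA and 10, 17.4 and 34.2 CPM in lysates (0.45, SE 0.17, edgeR adjusted p = 0.0296), with the sign turned in the deeply sequenced animals alone (-0.55) and the call lost without any one of box 2, 3 or 4, home cage 1 or 3, or shock 1, 3 or 4 (0.35 to 0.44).

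Pcdhac1, the other alpha C-type gene, was lower in Camk2a at 60 min (0.492 ± 0.697 CPM in purified RNA and 1.64 ± 1.23 CPM in lysates, log2 fold change -2.21, SE 0.72, edgeR adjusted p = 0.0116), a call lost with GC and length offsets (-1.46). In the other tables its log2 fold change was -0.52, 0.30, 0.23, -0.63 and -0.28 without a call. Counting all alpha genes tested, 1 of 13 was lower at 15 min in Camk2a and 2, 0, 2, 1 and 0 of 11 in the other tables. In each table this is a smaller share than that of all genes called lower, given above. Pcdhac2 was the one alpha gene called higher. The median alpha log2 fold change was -1.37, -0.70, -0.20, -0.11, -0.39 and 0.15. Of the 13 alpha genes tested 9 were called in no table, among them Pcdha6 and Pcdha7, which were tested in Camk2a at 15 min alone. The share of all genes called in no table was not worked out.

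**Figure D2:**
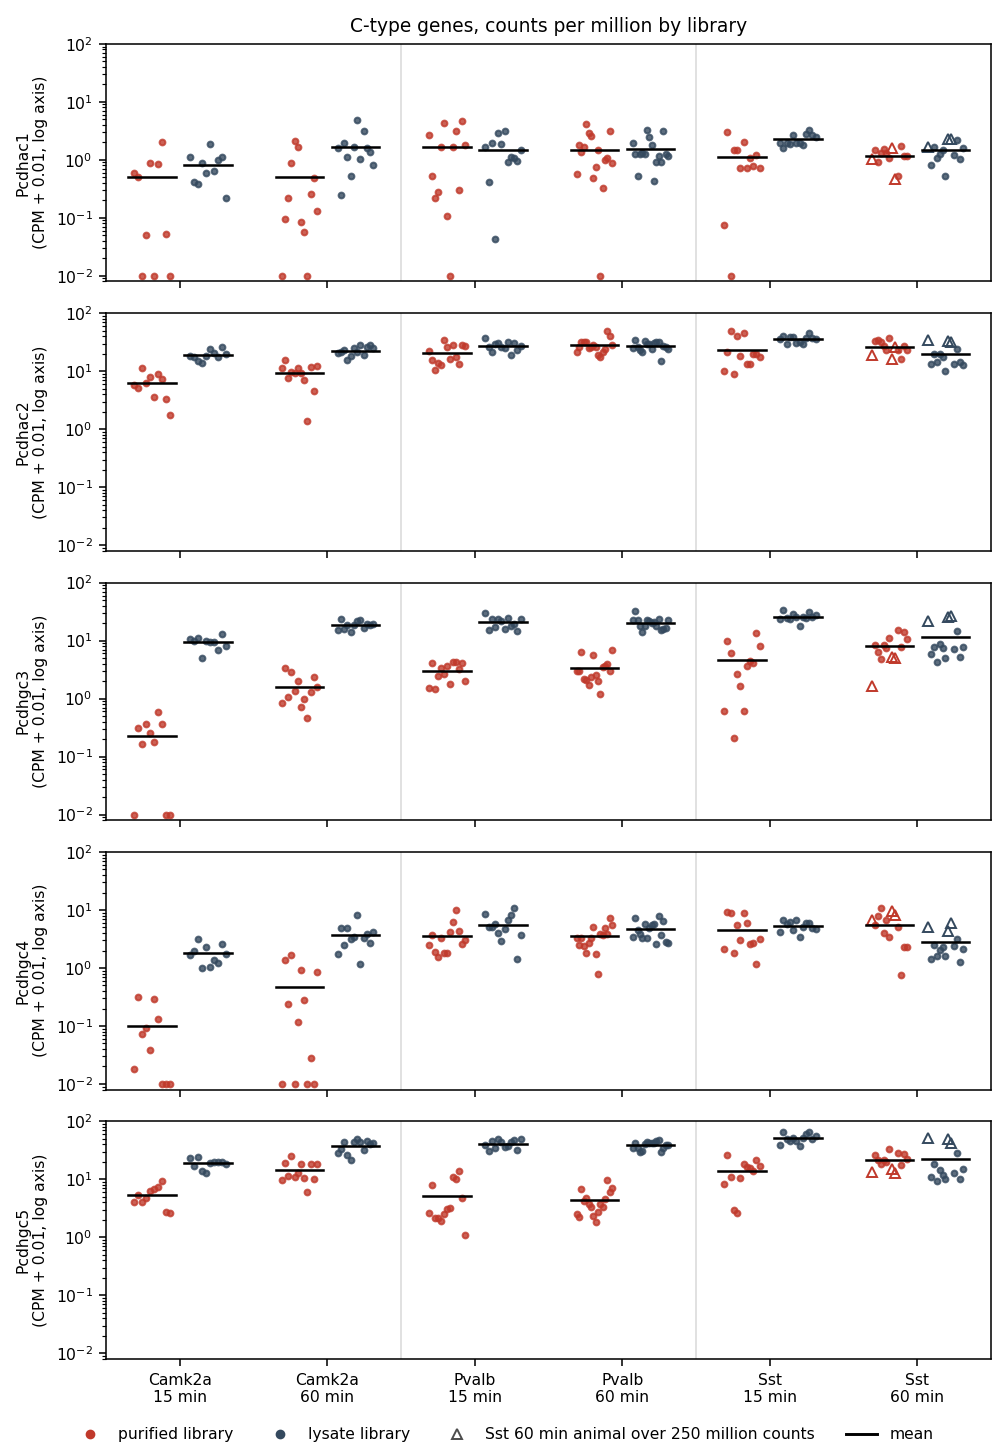
CPM of the 5 C-type genes in every library on a log axis after adding 0.01, purified RNA left of lysate, by line and set. Points are libraries and triangles the 3 deeply sequenced Sst animals of the 60 min set. Pcdhgc4 sits near 0 in purified Camk2a RNA alone, and purified and lysate points of Pcdhgc3 and Pcdhgc5 are apart in all but the Sst 60 min table and, for Pcdhgc5 at 60 min, the Camk2a line.

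Few beta genes were called outside the Sst 60 min table, and these in both directions. There 1, 1, 2, 3 and 2 of 21 were higher in purified RNA and 1, 2, 2, 3 and 1 lower, with median log2 fold changes of -0.05, -0.35, -0.15, 0.15 and -0.05. Each count is a smaller share than that of all genes called in the same direction and table, given above. In Sst at 60 min 0 beta genes were higher and 13 lower (median -0.78), where 5262 of all 16878 genes were higher and 4768 lower. The count of 13 was 1 in the deeply sequenced animals alone, 15 without them, 5 without the low-scoring libraries and 6 with GC and length offsets (median -0.10). Pcdhb9 was lower most often, in 5 tables. It averaged 5.35 ± 2.16 CPM in purified Camk2a RNA at 60 min and 15.0 ± 4.10 CPM in lysates (-1.21, edgeR adjusted p = 2.8e-05, n = 12 each). In Sst it averaged 7.07 ± 2.75 CPM in purified RNA and 20.1 ± 3.38 CPM in lysates at 15 min (-1.11), and 7.44 ± 2.79 against 19 ± 5.58 CPM at 60 min (-1.38, purified before lysate). Among the beta genes Pcdhb21 and Pcdhb22 share 455 exon bases in the gene models and the others share none. Reads that match more than 1 similar gene were not examined.

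Of the beta genes higher in purified RNA, Pcdhb10 was so in the Pvalb line and in Sst at 15 min. In Pvalb it had 2.39, 5.05 and 12.1 CPM in purified RNA at 15 min and 1.59, 2.94 and 4.16 CPM in lysates (log2 fold change 1.25, SE 0.26, edgeR adjusted p = 0.000362). At 60 min it had 1.76, 5.47 and 11.1 CPM in purified RNA and 1.42, 3.12 and 5.33 CPM in lysates (1.11, SE 0.21, edgeR adjusted p = 3.9e-05). In Sst at 15 min it had 0.888, 4.51 and 8.91 CPM in purified RNA and 1.68, 3.11 and 6.34 CPM in lysates (0.81, SE 0.31, edgeR adjusted p = 0.0348). That call was lost without any one of box 1 or 3, home cage 2 or 3, or shock 1, 2 or 3 (0.72 to 0.85), and was 1.04 without the low-scoring libraries. Its ranges overlapped between the fractions in all 3 tables. Pcdhb13 was higher in the Camk2a line, with 0.551, 1.87 and 4.99 CPM in purified RNA at 15 min and 0.398, 0.663 and 2.02 CPM in lysates (1.74, SE 0.46, edgeR adjusted p = 0.00344). At 60 min it averaged 2.02 ± 1.16 CPM in purified RNA and 1.06 ± 0.519 CPM in lysates (1.17, SE 0.42, edgeR adjusted p = 0.0197), and the call was lost without box 1 (1.16) or box 3 (1.03). Pcdhb12 averaged 12.1 ± 5.12 CPM in purified Pvalb RNA at 15 min and 8.17 ± 2.97 CPM in lysates (0.80, edgeR adjusted p = 0.00363). In Sst it was higher in purified RNA at 15 min (10.9 ± 4.98 against 8.88 ± 2.71 CPM, 0.65, edgeR adjusted p = 0.0131, lost without box 1 at 0.50, and 0.67 without the low-scoring libraries) and lower at 60 min (6.90 ± 3.24 against 11.3 ± 4.74 CPM, -0.78, edgeR adjusted p = 0.00724).

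Markers of other cells moved with the fraction. Of 10 astrocyte markers 10, 10, 6, 10, 8 and 5 were lower in purified RNA and 0 higher, with medians of -2.96, -3.82, -0.87, -1.11, -1.19 and -0.58. Their summed level was 506 to 996 CPM in purified RNA and 4035 to 5080 CPM in lysates in Camk2a at 15 min, and 851 to 3848 against 2848 to 4656 CPM in Sst at 60 min. Of 10 oligodendrocyte markers 10, 10, 9, 10, 9 and 5 were lower, at 326 to 823 CPM in purified RNA and 3804 to 9929 CPM in lysates in Camk2a at 15 min and 2417 to 11196 against 9025 to 12383 CPM in Sst at 60 min. Of 10 microglia markers 10, 10, 10, 10, 2 and 1 were lower and 5 were higher in Sst at 60 min, where their sum was 161 to 4325 CPM in purified RNA and 465 to 754 CPM in lysates. Choroid plexus markers summed to 13.0 to 17230 CPM across the Sst 60 min libraries. The interneuron markers fell in purified Camk2a RNA (11 of 11 and 10 of 12) and rose in the Pvalb (11 of 12 in each set) and Sst lines (11 and 7 of 12), as the labels imply. Pyramidal markers were higher in purified Camk2a RNA (10 of 12 in each set), lower in Pvalb (8 and 10 of 12) and Sst at 15 min (3 of 12), and 6 higher and 4 lower in Sst at 60 min. Of 7 parvalbumin markers 7 and 7 were higher in Pvalb (medians 3.15 and 3.47) and 6 and 4 in Sst (2.15 and 1.37). Of 7 somatostatin markers 7 and 7 were higher in Sst (3.04 and 2.42) and 4 and 6 in Pvalb (1.05 and 1.19). The 2 interneuron lines thus shared much of this enrichment. Of 9 endothelial markers 8 and 8 were lower and 0 higher in the Camk2a line (medians -2.0 and -1.89), whereas 3, 4, 4 and 3 were higher and 0, 1, 0 and 2 lower in the Pvalb and Sst tables. Their sum was 39.0 to 65.6 CPM in purified Camk2a RNA at 15 min and 214 to 319 CPM in lysates, and 181 to 288 against 168 to 311 CPM in Pvalb at 15 min, purified before lysate. Of 5 oligodendrocyte precursor markers 5, 5, 3, 4, 3 and 2 were lower and 0, 0, 1, 1, 0 and 2 higher. The gamma cluster had lysate over purified ratios of summed CPM of 3.55 and 3.05 in Camk2a and 4.43 and 4.44 in Pvalb. The astrocyte medians were -2.96 and -3.82 in Camk2a and -0.87 and -1.11 in Pvalb. These medians are log2 fold changes of single genes after TMM scaling, a measure unlike the gamma ratios. The part of these other cells in the gamma result was not tested.

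Differences between the lines in purified over lysate were tested as interactions within each set. This removes what purified RNA and lysate of a line share, but not what is particular to its lysates. At 15 min 2 of 54 members were relatively higher and 5 lower in Camk2a than in Pvalb (34.2% of all genes called), 0 and 3 in Camk2a than in Sst (22.6%), and 0 and 1 in Pvalb than in Sst (7.24%). At 60 min the counts were 7 and 7 of 55 (49.5%), 7 and 8 (52.8%), and 11 and 12 (60.5%). The share of members called was below the share of all genes in each of these 6 comparisons. Single animals moved some counts: without Pvalb home cage 2 there were 5 members relatively higher in Camk2a than in Pvalb at 15 min, and without Camk2a box 3, Camk2a home cage 3 or Pvalb box 2 there was 1. At 15 min 5 members differed between Camk2a and Sst without Camk2a home cage 2 or shock 3, 2 between Pvalb and Sst without Pvalb box 4 or shock 1, and at 60 min 13 were lower in Camk2a than in Sst without Camk2a box 2. Member medians were -0.28, -0.17 and -0.05 at 15 min and -0.16, -0.41 and -0.35 at 60 min, against -0.12, -0.15, -0.06, -0.38, -0.35 and -0.08 over all genes. The C-type genes were the members that differed most regularly (the plot of line differences).

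Among the members called, Pcdhgc4 had the largest difference in each of the 4 comparisons of the Camk2a line with an interneuron line. Its purified over lysate log2 fold change was lower in Camk2a than in Pvalb by 3.46 at 15 min (difference -3.46, SE 0.59, edgeR adjusted p = 4.3e-06) and by 2.59 at 60 min (-2.59, SE 0.62, edgeR adjusted p = 0.000331). Against Sst the differences were -4.04 (SE 0.60, edgeR adjusted p = 6.0e-07) and -3.64 (SE 0.65, edgeR adjusted p = 3.9e-06). Pcdhgc3 differed in the same direction, by -2.41 and -0.93 against Pvalb (SE 0.52 and 0.33, edgeR adjusted p = 0.000174 and 0.0153) and by -2.49 and -2.77 against Sst (SE 0.52 and 0.35, edgeR adjusted p = 0.000238 and 9.9e-10). Pcdhac2 did so too, by -1.04 and -1.33 against Pvalb (edgeR adjusted p = 0.009 and 1.2e-06) and by -0.98 and -1.31 against Sst (edgeR adjusted p = 0.0234 and 4.9e-06). All 3 genes thus had a lower purified over lysate ratio in Camk2a than in either interneuron line in both sets, in pairs that share the Camk2a libraries. The Pcdhgc3 call against Pvalb at 60 min was lost without Camk2a shock 1 (-0.76) or Pvalb shock 4 (-0.79). The Pcdhac2 call against Sst at 15 min was lost without Camk2a box 1 (-0.90), box 2 (-0.89) or home cage 3 (-0.82), without Sst box 3 (-0.67) and without the low-scoring libraries (-1.02). With the deeply sequenced Sst animals alone, the 60 min differences against Sst were -3.45 for Pcdhgc4, -0.33 for Pcdhgc3 and -0.33 for Pcdhac2, none of them called.

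Pcdhgc5 went the other way between Camk2a and Pvalb, by 1.54 at 15 min (SE 0.36, edgeR adjusted p = 0.000595) and 1.79 at 60 min (SE 0.27, edgeR adjusted p = 9.6e-08). It was lower in Pvalb than in Sst, by -1.39 (SE 0.35, edgeR adjusted p = 0.0076) and -2.87 (SE 0.27, edgeR adjusted p = 3.4e-14). Between Camk2a and Sst at 60 min it differed by -1.09 (SE 0.28, edgeR adjusted p = 0.00101), a call lost without the low-scoring libraries (-0.58). The value turned to 0.65 in the deeply sequenced animals alone and to 0.15 with GC and length offsets. The ratio of Pcdhgc5 was thus lowest in the Pvalb line in both sets, and that of Pcdhgc4 in the Camk2a line.

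Other members differed in 1 set or pair. At 15 min Pcdhb13 was relatively higher in Camk2a than in Pvalb (1.98, SE 0.71, edgeR adjusted p = 0.0246, lost without Camk2a box 3 at 1.68, Camk2a home cage 3 at 1.79 or Pvalb box 2 at 1.73) and Pcdhb12 lower (-1.05, SE 0.32, edgeR adjusted p = 0.00786). At 60 min Pcdhga3, Pcdhga12 and Pcdha12 were relatively higher in Camk2a than in Pvalb (1.48, 1.3 and 1.23), and Pcdhb10 (-2.10, SE 0.39, edgeR adjusted p = 5.7e-06) and Pcdhac1 (-2.48) lower. Between Pvalb and Sst at 60 min, 11 beta genes were relatively higher and 11 gamma genes and Pcdha12 lower in Pvalb, with cluster medians of 1.04 for beta and -1.29 for gamma. Examples are Pcdhb4 (2.63, SE 0.59, edgeR adjusted p = 8.7e-05) and Pcdhga12 (-2.02, SE 0.37, edgeR adjusted p = 3.3e-06). With GC and length offsets 5 members were higher and 5 lower (42.9% of all genes called), with medians of 0.45 for beta and -0.55 for gamma. With the deeply sequenced Sst animals alone 0 and 0 were called (3.34% of all genes), and the difference of Pcdhga3 was 0.58, against -1.70 with all animals. Without the low-scoring libraries 5 and 7 were called (48.7%).

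**Figure D3:**
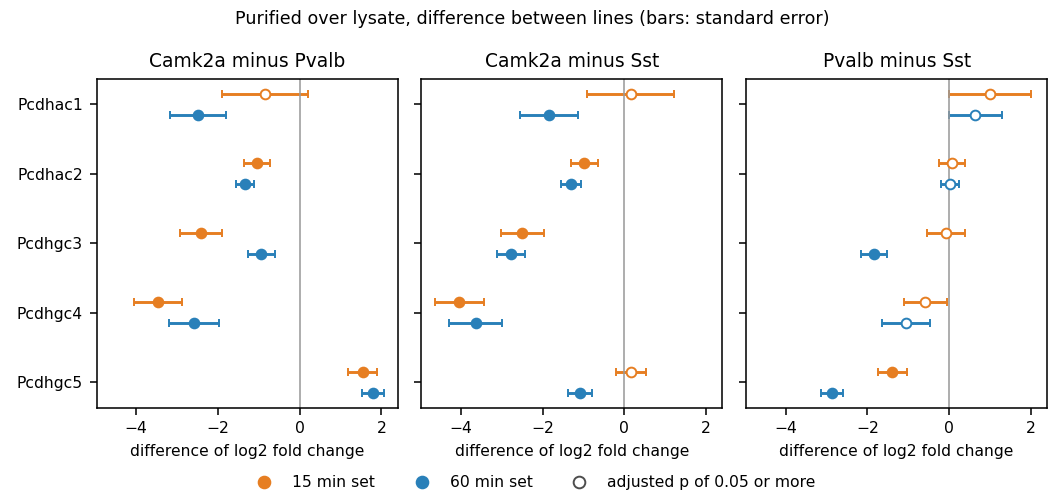
Differences between lines in the purified over lysate log2 fold change of the 5 C-type genes, with bars of 1 SE, by set and pair of lines. Filled points have an adjusted p under 0.05 and open points do not. Pcdhgc4 lies between -4.04 and -2.59 in the 4 pairs with Camk2a, whereas Pcdhgc5 is above 0 in Camk2a minus Pvalb in both sets.

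The same genes can be set side by side in purified RNA of home cage mice alone, where each line was a separate set of animals. At 15 min 0 of 54 members were higher and 4 lower in Camk2a than in Pvalb (15.2% of all genes called), 0 and 3 in Camk2a than in Sst (9.5%), and 0 and 0 in Pvalb than in Sst (0.0548%, with 1 member at an unadjusted p under 0.05, while DESeq2 also called 0). Pcdhgc4 had 0.0806, 0.0281 and 0.280 CPM in Camk2a, 3.28, 1.81, 1.78 and 4.22 CPM in Pvalb and 1.79, 5.48, 3.02 and 8.79 CPM in Sst. It was lower in Camk2a than in Pvalb (log2 fold change -4.33, edgeR adjusted p = 0.0079, lost without Camk2a home cage 1 at -4.10 or 2 at -3.85) and than in Sst (-5.19, edgeR adjusted p = 0.00443). Pcdhac2 had 6.22, 8.08 and 3.56 CPM in Camk2a, 12.7, 34.6, 26.5 and 16.3 CPM in Pvalb and 8.77, 40.5, 18.2 and 45.7 CPM in Sst. All Camk2a values lay below all values of the other lines (-1.83 and -2.24, edgeR adjusted p = 0.0216 and 0.00945). The first call was lost without Camk2a home cage 1 (-1.88) or 3 (-1.56) or Pvalb home cage 2 (-1.54), and the second without Camk2a home cage 3 (-1.97). Pcdhb12 had 1.44, 5.71 and 1.51 CPM in Camk2a, 10.9, 7.05, 11.5 and 14.1 CPM in Pvalb and 16.2, 14.7, 10.7 and 17.3 CPM in Sst (-1.83 and -2.36, edgeR adjusted p = 0.00976 and 0.00249), and the first call was lost without Camk2a home cage 1 or 3 (-1.51 and -1.52). Leaving out either of those Camk2a animals left 1 of the 4 calls against Pvalb.

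At 60 min 6 of 54 members were higher and 4 lower in Camk2a than in Pvalb (51.8%), 0 and 5 in Camk2a than in Sst (24.4%), and 2 and 8 in Pvalb than in Sst (44.2%). Pcdhgc5 had 25.6, 11.1, 12.9 and 18.6 CPM in Camk2a, 4.78, 3.81, 3.31, 1.84, 2.69 and 2.33 CPM in Pvalb and 21.8, 19.7, 33.1, 15.1 and 12.8 CPM in Sst. All 6 Pvalb values were below those of the other lines (2.57 for Camk2a over Pvalb and -2.57 for Pvalb over Sst, edgeR adjusted p = 4.7e-08 and 1.0e-07). Pcdhb10 was lower in Camk2a than in Pvalb (-4.28, SE 0.60, edgeR adjusted p = 1.7e-07) and than in Sst (-3.73, SE 0.59, edgeR adjusted p = 9.9e-06). The Camk2a home cage values of this set lay below all its shock and box values in purified RNA. Over all conditions that RNA held 0.0368, 1.77 and 5.35 CPM of Pcdhb10 (lowest, median, highest). At 15 min Pcdhb10 was called in neither pair. Pcdhgc3 had 2.81, 1.36, 1.99 and 0.700 CPM in Camk2a, 2.06, 1.73, 2.37, 2.57, 1.98 and 5.75 CPM in Pvalb and 8.32, 7.55, 11.1, 5.26 and 4.96 CPM in Sst. It was lower in Camk2a than in Sst (-1.85, edgeR adjusted p = 0.00926) and lower in Pvalb than in Sst (-1.30, edgeR adjusted p = 0.0193, lost without Sst home cage 3 at -1.11). Of the 10 Pvalb calls against Sst, 6 were left without Pvalb home cage u1 or Sst home cage 1 and 5 without Sst home cage 3, and 3 without the low-scoring libraries.

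Few members were called for conditioning. For shock against home cage in purified RNA, the median SE of a member was 1.40, 1.04, 1.45, 0.80, 0.92 and 0.48 log2 units. Large changes could thus go without a call, and a missing call does not show a missing change. In lysates the median SE was 0.25 at 15 min and 0.23 at 60 min. In purified RNA of shock against home cage mice 0, 1, 0, 1, 0 and 0 of 53, 54, 52, 54, 54 and 54 members were called, where 0%, 2.3%, 0%, 35%, 1.21% and 4.49% of all genes were. At an unadjusted p under 0.05 there were 3, 4, 2, 5, 2 and 3 members. DESeq2 called 3 in Camk2a, 4 in Pvalb and 2 in Sst at 60 min, and 2 in Sst at 15 min. For box against home cage 0 members were called in any table by edgeR or DESeq2 (0% of all genes, 2, 2, 1, 1, 0 and 0 members at an unadjusted p under 0.05). For shock against box 0 were called by edgeR (0%, 0%, 0%, 0%, 0% and 8.18% of all genes, 1, 1, 3, 2, 1 and 6 members at an unadjusted p under 0.05), and DESeq2 called 1 in Sst at 15 min and 2 in Sst at 60 min. In lysates of the 3 lines together 0 members were called by edgeR or DESeq2 for shock against home cage at 15 or 60 min (0.128% and 0% of all genes, 1 and 1 members at an unadjusted p under 0.05), for box against home cage (0.0128% and 0%, 3 and 2 members) or for shock against box (0% and 0%, 1 and 0 members).

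Pcdhb10 was the member that changed in the Camk2a line at 60 min (the plot of Pcdhb10). Purified RNA held 2.32, 5.35, 0.967, 3.55 and 4.79 CPM after shock, 1.22, 2.65 and 2.42 CPM after box and 0.395, 0.0368, 0.219 and 0.378 CPM in home cage mice. All 8 shock and box values lay above all 4 home cage values. The log2 fold change of shock over home cage was 3.77 (SE 0.85, edgeR adjusted p = 0.0475), where 1.66% of all genes were higher and 0.641% lower, and the call was lost without any one of home cage 1 to 4 or shock 1, 4 or 5 (3.41 to 4.08), and with GC and length offsets, the marker score or the replicate number in the model. Lysates of that set held 3.07, 1.67, 2.82, 2.49 and 6.65 CPM after shock, 0.817, 2.91 and 2.0 CPM after box and 0.738, 4.51, 5.30 and 4.90 CPM in home cage mice, so all 4 home cage lysates were above all 4 purified home cage values. At 15 min purified RNA held 2.54, 1.34, 2.78 and 2.43 CPM after shock, 2.61, 1.62 and 10.7 CPM after box and 5.62, 4.42 and 3.98 CPM in home cage mice. The shock response at 60 min exceeded that at 15 min by 4.74 (SE 1.02, edgeR adjusted p = 0.0183, 5.71% of all genes called), a call lost without home cage 1 of the 15 min set (4.55), with GC and length offsets (4.48) and with the marker score in the model (4.34). In the Pvalb and Sst lines 0 members were called for this difference by edgeR or DESeq2 (0% of all genes in each, 0 and 2 members at an unadjusted p under 0.05). The home cage animals of the sets themselves differed, at 0.257 ± 0.167 CPM (n = 4) in the 60 min set and 4.67 ± 0.847 CPM (n = 3) in the 15 min set (-4.18, edgeR adjusted p = 0.000241), and the part of this difference in the response was not tested.

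**Figure D4:**
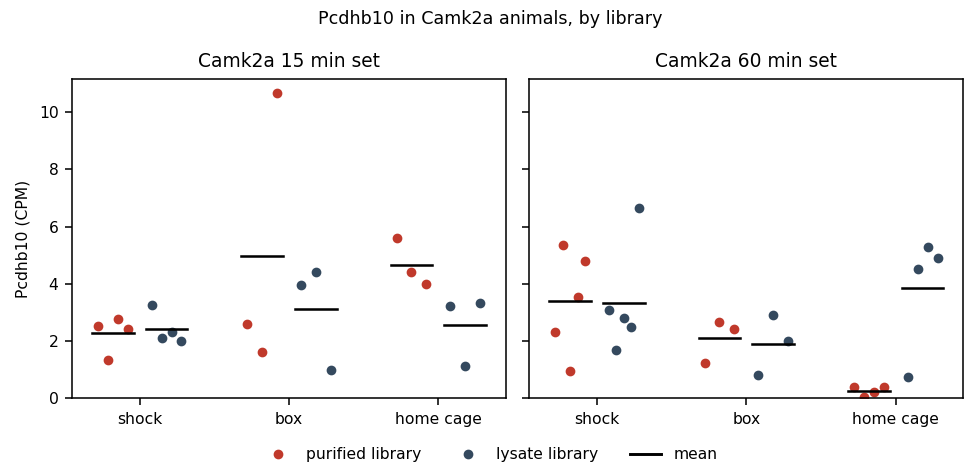
CPM of Pcdhb10 in the Camk2a line by condition, shock left of box left of home cage, in purified RNA and lysate at 15 and 60 min. Each point is a library and bars are means. At 60 min the 4 home cage points of purified RNA lie at 0.0368 to 0.395 CPM, below all shock and box points, while the lysate points overlap.

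In the Pvalb line Pcdhb16 was lower after shock at 60 min. It had 1.79, 4.16, 2.06, 2.63, 1.05 and 1.54 CPM after shock, 5.57, 7.02, 3.35 and 3.34 CPM after box and 2.30, 13.2, 2.18, 3.65, 6.38 and 4.36 CPM in home cage mice. The shock and home cage values overlapped, and 1 home cage library was far above the rest. The log2 fold change was -1.29 (SE 0.46, edgeR adjusted p = 0.0358), with the call lost without that library, home cage 3 (-0.79), without home cage u2 (-1.23) or shock 3, 4, 5 or 6 (-1.35 to -1.15), and with GC and length offsets (-0.74). The share of all genes called, 35%, was far above that of the members.

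A response that differed between the fractions was found for Pcdhb3 in the Pvalb line at 60 min, where 20.4% of all genes were called. Purified RNA held 9.21, 3.32, 4.02, 2.67, 3.58 and 5.37 CPM after shock and 4.41, 21.3, 7.6, 8.91, 8.19 and 5.84 CPM in home cage mice. Lysates held 6.79, 7.62, 5.22, 7.50, 5.84 and 4.50 CPM after shock and 2.61, 4.05, 4.48, 3.94, 4.92 and 4.61 CPM in home cage mice. Shock values were mostly the lower in purified RNA and mostly the higher in lysates. The response in purified RNA minus that in lysate was -1.66 (SE 0.48, edgeR adjusted p = 0.0166), a call lost without home cage 3 (-1.26) or shock 4 (-1.48). It was also lost with GC and length offsets (-1.26), with the replicate number in the model (-1.45) and with both (-1.01), and leaving out 1 animal at a time gave 0 to 5 members called. For this difference edgeR called 0 members in the other 5 tables (0.00638%, 0%, 0%, 1.58% and 0.0415% of all genes, the last made up of 0.0296% higher and 0.0118% lower, and 3, 3, 2, 3 and 1 members at an unadjusted p under 0.05), and DESeq2 called 1 in Camk2a at 60 min.

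The members nearest to the threshold without a call were in the Sst line. Pcdhb12 at 15 min had 5.37, 9.71, 5.30, 4.36 and 4.18 CPM after shock, 16.1, 13.3 and 13.0 CPM after box and 16.2, 14.7, 10.7 and 17.3 CPM in home cage mice (-1.45, edgeR adjusted p = 0.0546). The shock values did not overlap those of the other groups, and 4 of the 5 shock libraries are low-scoring ones. In the same comparison 10 of 10 microglia markers were higher (median 5.5), with sums of 76.5 to 5977 CPM after shock and 84.2 to 123 CPM in home cage mice. The 1 shock library that is not low-scoring, shock 1, had 5.37 CPM of Pcdhb12 and the lowest of these sums. Pcdhgc4 at 60 min had 5.16, 0.751, 2.28 and 2.27 CPM after shock and 6.66, 5.43, 7.77 and 10.7 CPM after box (-1.70, edgeR adjusted p = 0.0618), and all 4 shock libraries are low-scoring ones. The part of the missing enrichment and of the microglia markers in these values was not tested.

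Home cage mice carry the same label in both sets, and their purified RNA differed between the 60 min and the 15 min set in some members. In the Camk2a line 2 of 54 members were higher and 1 lower in the 60 min set (33.3% of all genes called). Pcdhgc5 was 17.1 ± 6.54 CPM in the 60 min set and 5.92 ± 1.09 CPM in the 15 min set (1.53, edgeR adjusted p = 0.00873, lost with GC and length offsets at 1.0), and Pcdhb10 is given above. Pcdha12 was 5.01 ± 1.88 and 0.818 ± 1.29 CPM (2.63, edgeR adjusted p = 0.0486), a call lost without home cage 1 or 3 of the 15 min set or 1, 2 or 3 of the 60 min set (2.10 to 2.64). In the Pvalb line 0 members were called (0.391%, and 0 at an unadjusted p under 0.05, while DESeq2 also called 0). In Sst 1 was higher, Pcdhgc3 (7.45 ± 2.52 CPM in the 60 min set and 1.26 ± 1.09 CPM in the 15 min set, 2.19, edgeR adjusted p = 0.0317), and 2 were lower, Pcdhb12 (6.29 ± 2.35 and 14.8 ± 2.88 CPM, -1.52, edgeR adjusted p = 0.00997) and Pcdhb17 (-1.34, edgeR adjusted p = 0.0415), where 16.2% of all genes were called. Leaving out home cage 3 of the 15 min set or home cage 1 or 3 of the 60 min set left 1 of these 3 calls, and leaving out the low-scoring libraries left 0. Sets were compared across tables, so a difference in how the tables were made cannot be told apart from one between the animals.

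Related genes outside the clusters were followed as 3 lists. The delta protocadherins are single genes elsewhere in the genome that act in adhesion and synapse pruning. Of 10, 2, 2, 6, 7, 5 and 1 were higher in purified RNA and 2, 3, 3, 3, 1 and 6 lower. Over all genes 22.9%, 22.2%, 21.3%, 28%, 23.6% and 31.2% were higher and 27.8%, 35.3%, 24.3%, 32.4%, 21% and 28.2% lower, and many of the counts of the 3 lists lie near these shares. Pcdh18 was lower in purified Camk2a RNA (log2 fold change -5.78 and -4.47) and higher in Pvalb (0.87 and 0.99) and in Sst at 15 min (1.46), and Pcdh19, which is mutated in a form of epilepsy, was higher in 5 tables (0.60 to 1.06). The chromatin regulators of the clusters, with CTCF, cohesin and DNA methyltransferases, had 3, 5, 4, 6, 5 and 4 of 18 higher and 6, 8, 4, 6, 5 and 10 lower. Smc1a, a core subunit of cohesin, was higher in all 6 tables (0.52 to 0.89) and Pds5a, which regulates cohesin, lower in all 6 (-1.91 to -0.88). Of 19 partners and effectors of the proteins, 6, 4, 2, 4, 7 and 5 were higher and 3, 4, 10, 10, 5 and 10 lower. Cyfip1, a subunit of the WAVE actin-regulating complex, and Ptk2, a kinase that gamma protocadherins inhibit, were lower in all 6.

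After shock these lists changed most in purified Pvalb RNA at 60 min, where 19.7% of all genes were higher and 15.3% lower. Of the partners 0 were higher and 9 lower, among them Adam10, the protease that cleaves gamma protocadherins (-1.19, SE 0.29, edgeR adjusted p = 0.00452), and Rac1 (-0.49, SE 0.12, edgeR adjusted p = 0.00514). Of the chromatin regulators 1 was higher, Wiz (0.77, edgeR adjusted p = 0.00659), and 4 lower, among them the cohesin loader Nipbl (-0.91, edgeR adjusted p = 0.00495) and the cohesin subunit Rad21 (-0.81, edgeR adjusted p = 0.0166). Of the delta protocadherins 1 was higher, Pcdh1 (0.93, edgeR adjusted p = 0.0471), and 3 lower, Pcdh9, Pcdh17 and Pcdh20 (-0.70 to -0.62). In the Camk2a line at 60 min Smc3 (0.71, edgeR adjusted p = 0.0496) and the partners Abi1, Wasf1 and Nlgn1 (0.91 to 1.06) were higher, where 1.66% of all genes were. In Sst at 60 min Dnmt3a was higher (1.40, edgeR adjusted p = 0.0188) and Ret lower (-1.96, edgeR adjusted p = 0.0324), in the table whose shock libraries are all low-scoring and where 2.34% of all genes were higher and 2.15% lower.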

How the data were processed

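The authors deposited whole-number read counts per gene, 1 column per library, in 6 tables by line and set. Per the submitters' processing notes, the tools were STAR 2.7.7a, featureCounts and DESeq2 and the build GRCm38; their settings are not given in the sources used here. Per the labels' protocols, libraries were made with a Nextera XT kit, which does not mark strand, so overlapping transcripts cannot be told apart. Groups came from the titles, and 3 columns with no number kept their group.

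Levels were computed as CPM of the total count. Tests used edgeR 4.0.16 under R 4.3.3 (genes kept by filterByExpr, TMM scaling, robust quasi-likelihood F test) on the counts of all genes, with Benjamini-Hochberg adjustment and a threshold of 0.05. Log2 fold changes are after TMM, so they can differ from ratios of mean CPM. Purified and lysate were compared with conditions weighted equally. The tests were checked on simulated counts with the same dispersion for every gene, so the check does not cover the spread of the members. Alternatives were DESeq2 1.42.0, its size factors, no low-count filter, GC and length offsets (57 of 59 members had a value), the replicate number as a block, and leaving out libraries. No 2 replicates were alike within sampling noise (smallest reduced chi-square 20.1 of 257 pairs). Named were the C-type genes, up to 4 members per direction with the smallest p in each comparison (1 where none passed), the 3 highest and lowest per cluster, and up to 4 genes of each other list. Members and lists were chosen with earlier results of these data known.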

Additional observations from a re-analysis of the deposited data

Results flagged for a closer look

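In 216 tests, each of 1 cluster total or C-type gene in a group of 4 to 10 libraries, a library far from the others was found 16 times, and chance gives about 1 in 20. Among cluster totals, alpha stood apart in the Pvalb 60 min lysate of shock 3 (24.6 CPM, others 40.9 to 47.8) and the Sst 60 min lysate of shock 2 (39.7 CPM, others 23.5 to 25.9), and gamma did so in that same Sst lysate (97.9 CPM, others 57.5 to 61.6). Beta stood apart in the Camk2a 15 min lysate of shock 1 (138 CPM, others 107 to 110.0) and gamma in the Pvalb 60 min lysate of home cage 1 (106 CPM, others 130.2 to 141). Pcdhac2 was the alpha gene apart in the Sst 60 min lysate of shock 2 (23.9 CPM, others 12.8 to 14.3), and it was low in purified Sst RNA of box 1 at 60 min (19.4 CPM, others 31.7 to 34.1). Pcdhac1 was high in purified Pvalb RNA of box 1 at 15 min (2.71 CPM) and of shock 5 at 60 min (3.13 CPM), in the Pvalb 60 min lysate of shock 4 (3.18 CPM) and in the Sst 15 min lysate of home cage 2 (2.63 CPM).

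Among gamma C-type genes, Pcdhgc3 was high in purified Pvalb RNA of home cage 6 at 60 min (5.75 CPM, others 1.73 to 2.57). Pcdhgc4 was at 0.121 CPM in purified Camk2a RNA of shock 1 at 15 min, where the other 3 libraries had 0, and at 8.45 CPM in the Pvalb 15 min lysate of box 1 (others 5.12 to 5.64). Pcdhgc5 was at 8.06 CPM in purified Pvalb RNA of box 2 at 15 min (others 2.16 to 2.60) and at 30.9 CPM in the Pvalb 60 min lysate of home cage 1 (others 40.4 to 43.6).

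For 17 of the members named by the rule, a difference between groups passed a test of the difference itself, an interaction term in edgeR, given here on the log2 scale. The shock response of Pcdhb3 in Pvalb at 60 min differed between purified RNA and lysate by -1.66, and that of Pcdhb10 in purified Camk2a RNA differed between 60 and 15 min by 4.74. In purified over lysate at 15 min, Camk2a minus Pvalb was 1.54 for Pcdhgc5, 1.98 for Pcdhb13, -3.46 for Pcdhgc4, -2.41 for Pcdhgc3, -1.05 for Pcdhb12 and -1.04 for Pcdhac2. Camk2a minus Sst was -4.04 for Pcdhgc4, -2.49 for Pcdhgc3 and -0.98 for Pcdhac2, and Pvalb minus Sst was -1.39 for Pcdhgc5. At 60 min, Camk2a minus Pvalb was 1.79 for Pcdhgc5, 1.48 for Pcdhga3, 1.3 for Pcdhga12, 1.23 for Pcdha12, -1.33 for Pcdhac2, -2.10 for Pcdhb10, -2.59 for Pcdhgc4, -2.48 for Pcdhac1 and -0.93 for Pcdhgc3. Camk2a minus Sst was 1.25 for Pcdhb17, 1.94 for Pcdhb4, 0.89 for Pcdhb7, 1.10 for Pcdhb20, -2.77 for Pcdhgc3, -3.64 for Pcdhgc4, -1.31 for Pcdhac2, -1.09 for Pcdhgc5 and -1.84 for Pcdhac1, the last lost without Camk2a box 1 (-1.57) or home cage 4 (-1.43). Pvalb minus Sst was 1.43 for Pcdhb14, 2.63 for Pcdhb4, 1.29 for Pcdhb17, 1.36 for Pcdhb12, -2.87 for Pcdhgc5, -1.84 for Pcdhgc3, -2.02 for Pcdhga12 and -1.70 for Pcdhga3. With the 3 deeply sequenced Sst animals alone, 1 member differed between Camk2a and Sst at 60 min and 0 between Pvalb and Sst.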

How the results depend on the processing

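Values here are numbers of members called, with the number as reported in brackets, and the cause of a change was not tested unless given. DESeq2 size factors and the absence of a low-count filter kept 54 of 54 counts of called members within 1.5 times, DESeq2 40, GC and length offsets 45 and the replicate block 50. Leaving out the Camk2a, Pvalb or Sst line kept each of the 6 lysate counts. Of the gamma genes lower in purified RNA, DESeq2 size factors gave 7 (4) in Sst at 60 min.

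With DESeq2 the counts were 23 (15) for purified against lysate in Camk2a at 15 min, 1 (0) and 2 (1) for the response in purified RNA minus lysate in Camk2a and Pvalb at 60 min, 3 (1), 4 (1), 2 (0) and 2 (0) for shock against home cage in Camk2a at 60 min, Pvalb at 60 min, Sst at 15 min and Sst at 60 min, and 1 (0) and 2 (0) for shock against box in Sst at 15 and 60 min. They were 8 (4) and 6 (3) for home cage Camk2a against Pvalb and Sst at 15 min, 5 (3) for Camk2a minus Sst in purified over lysate at 15 min, 6 (3) and 8 (3) for the home cage sets of Camk2a and Sst, and 9 (4) for gamma genes lower in Sst at 60 min.

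With GC and length offsets they were 0 (1) for the response in purified RNA minus lysate in Pvalb at 60 min, 0 (1), 0 (1) and 1 (0) for shock against home cage in Camk2a, Pvalb and Sst at 60 min, 3 (0) for shock against box in Sst at 60 min, 8 (5) and 5 (10) for home cage Camk2a and Pvalb against Sst at 60 min, 10 (23) for Pvalb minus Sst in purified over lysate at 60 min, 0 (1) for the Camk2a response at 60 minus 15 min, and 6 (12), 6 (15) and 13 (4) for gamma genes lower in Camk2a at 15 and 60 min and Sst at 60 min.

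Replicate numbers were not taken as a pairing in the main tests, and whether they pair the samples is not settled here. In 72 pairs of purified RNA and lysate with the same condition and number, deviations from the group means were correlated. The correlation was -0.34 to 0.49 (median 0.088) and above 0.1 in 32 pairs. Between conditions with the same number it was above 0.1 in 11 of 64 purified pairs and 21 of 63 lysate pairs. With the number as a block the counts were 0 (1) for the response in purified RNA minus lysate in Pvalb at 60 min, 0 (1) for shock against home cage in Camk2a at 60 min, 6 (10) for home cage Pvalb against Sst at 60 min, 3 (1) for Pvalb minus Sst in purified over lysate at 15 min and 2 (4) for gamma genes lower in Sst at 60 min. With the block and the offsets they were 0 (1) for that Pvalb response and 7 (12), 7 (15) and 12 (4) for gamma genes lower in Camk2a at 15 and 60 min and Sst at 60 min.

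With home cage libraries only, which leaves fewer samples, purified against lysate gave 4 (15), 7 (20), 4 (16), 17 (28), 10 (18) and 3 (20), gamma genes lower 2 (12), 4 (15), 4 (12), 12 (19), 8 (14) and 2 (4), and line differences of purified over lysate 1 (7) for Camk2a minus Pvalb and 0 (1) for Pvalb minus Sst at 15 min, and 6 (14), 3 (15) and 15 (23) at 60 min. Averaging all 3 conditions, which adds samples, gave 8 (4), 9 (3) and 2 (0) at 15 min and 18 (10), 12 (5) and 16 (10) at 60 min for line differences in purified RNA. With the marker score as a covariate, shock against home cage gave 0 (1) in Camk2a and 5 (1) in Pvalb at 60 min, the Camk2a response at 60 minus 15 min 0 (1) and the Sst home cage sets 1 (3). TMM scaling gave 50.3 CPM (57.0) for alpha in Sst lysates at 15 min.

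In the Sst 60 min table the 3 deeply sequenced animals alone gave 7 (20) for purified against lysate and, in the line differences of purified over lysate, 1 (15) for Camk2a minus Sst and 0 (23) for Pvalb minus Sst, and without them Camk2a minus Sst gave 23 (15). Without the low-scoring libraries purified against lysate gave 12 (20) in Sst at 60 min, home cage Camk2a and Pvalb against Sst 2 (5) and 3 (10), Camk2a minus Sst in purified over lysate 5 (3) at 15 min and 8 (15) at 60 min, Pvalb minus Sst 12 (23), and the Sst home cage sets 0 (3). In those 3 animals alone the sign of the log2 value turned for Pcdhac2 (-0.55) and Pcdhga7 (-0.54) in purified against lysate, for Pcdhb20 (-0.22) and Pcdhgc5 (0.65) in Camk2a minus Sst, and for Pcdhgc3 (0.48) and Pcdhga3 (0.58) in Pvalb minus Sst. For Pcdhgc5 in Camk2a minus Sst it also turned with the offsets (0.15).

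Leaving out 1 animal or library at a time gave 13 to 21 (20) for purified against lysate in Camk2a at 60 min, 0 to 5 (1) and 0 to 2 (0) for the response in purified RNA minus lysate in Pvalb at 60 min and Sst at 15 min, 0 to 1 (1), 0 to 5 (1), 0 to 1 (0) and 0 to 1 (0) for shock against home cage in Camk2a at 60 min, Pvalb at 60 min, Sst at 15 min and Sst at 60 min, and 0 to 1 (0) for shock against box in Sst at 60 min. It gave 1 to 4 (4) for home cage Camk2a against Pvalb at 15 min, 3 to 5 (5) and 5 to 10 (10) for Camk2a and Pvalb against Sst at 60 min, 0 to 2 (1) and 0 to 2 (0) for the response at 60 minus 15 min in Camk2a and Sst, and 1 to 4 (3) for the Sst home cage sets. For line differences of purified over lysate, where the dispersion trend of all libraries was kept and this alternative was chosen after seeing the data, it gave 2 to 5 (3) and 1 to 2 (1) for Camk2a and Pvalb minus Sst at 15 min. The Sst and marker-score subsets were also chosen after seeing the data. Depth limits the low members: 3 counts in a library are 0.0252 to 0.332 CPM where Pcdhgc3 had none.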
